A study of Mus musculus with 8 samples.

Results

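The genes described here are the calcium channel, calcium store and calcium pump genes of the mouse iris. They were chosen by symbol: the pore subunits (*Cacna1*), alpha2delta subunits (*Cacna2d*), beta subunits (*Cacnb*) and gamma subunits (*Cacng*) of voltage-gated calcium channels, the IP3 receptors (*Itpr*), the ryanodine receptors (*Ryr*), *Stim*, *Orai*, the pumps of the *Atp2a*, *Atp2b* and *Atp2c* families, the exchangers *Slc8a* and phospholamban (*Pln*), with antisense transcripts left out. The rule found 50 of the 22873 genes counted. Nuclei came from irides, with a part of the ciliary body, of wild-type (WT) female albino mice aged 6 to 8 weeks. In 3 libraries the mice were untreated. In 3 libraries the pupil was constricted over 6.5 hours with hourly eye drops of 5% pilocarpine in the light, and in 2 libraries it was dilated over the same time with hourly drops of 5% phenylephrine and 1% cyclopentolate in the dark. Each library pooled 5 or 6 irises, so the libraries are the replicates. Drug and lighting changed together between constricted and dilated mice and cannot be told apart. Dilated and untreated mice differed in drugs, hourly drops and pupil width at once, which cannot be told apart either. The lighting of the untreated mice is not stated. The dilation effect named below is this whole difference. The authors assigned the nuclei to 10 cell types: dilator muscle, sphincter 1, sphincter 2, iris pigment epithelium (iris PE), ciliary body epithelium (CBE), ciliary body (CB), stroma 1, stroma 2, endothelial cells and leukocytes.

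Smooth muscle contracts when calcium rises in the cytoplasm, which activates myosin light chain kinase. The calcium enters from outside through voltage-gated channels or leaves the sarcoplasmic reticulum through IP3 receptors, which open to the IP3 made downstream of adrenergic and muscarinic receptors, or through ryanodine receptors, which open to calcium itself. SERCA pumps (*Atp2a*) refill the store, STIM proteins sense its depletion and open ORAI channels in the plasma membrane, and PMCA pumps (*Atp2b*) and the sodium-calcium exchanger (*Slc8a*) move calcium out of the cell. In the iris the dilator contracts through alpha-1 adrenergic receptors and the sphincter through muscarinic receptors.

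The 8 libraries held 34357 nuclei and 109565284 unique molecular identifiers (UMIs), between 5189437 and 25136427 per library, with a median of 2775 to 3534 UMIs per nucleus in 7 libraries and 4697.5 in constricted library 2. Levels are given as CPM, a gene's count in a cell type of a library scaled to the same total of UMIs, so they are relative to all other transcripts. The deposited cell type names were checked with marker genes. The summed level of 4 smooth muscle markers (*Myh11*, *Acta2*, *Cnn1* and *Lmod1*) lay between 2613 and 5414 CPM in the 3 muscle types of untreated libraries. It lay between 77.6 and 232 CPM in iris PE, CBE, CB, stroma 1 and stroma 2. It was higher in endothelial cells, at 328 to 465 CPM, and spread from 66.2 to 485 CPM in leukocytes. Untreated endothelial cells also held 562 to 987 CPM of the sphincter 1 markers *Chrm3*, *Ttn* and *Ctnna3*, against 6506 to 7629 CPM in sphincter 1. Leukocytes held 132 to 470 CPM of 4 stroma 2 markers. Endothelial markers were at 6062 to 7108 CPM in endothelial cells, and leukocyte markers at 5437 to 6654.5 CPM in leukocytes. The rarest types had as few as 12 endothelial and 13 leukocyte nuclei in a library, so their levels are imprecise. Sphincter 2 had as few as 26 nuclei (untreated library 1) and sphincter 1 as few as 34 (constricted library 2). In all, 5 cell types had under 50 nuclei in some library. Of the nuclei, 400 (1.164%) had a barcode that also occurred in another library. At least 3 UMIs of markers listed for a cell type other than their own were found in 1080 nuclei (3.143%), called nuclei of mixed markers. The pigment epithelium list includes *Otx1*, and the study reports OTX1 and OTX2 in sphincter and dilator muscle too. A muscle nucleus can therefore be counted for *Otx1* of its own, and the part of *Otx1* in the counts was not tested. Among the nuclei of mixed markers were 164 of 1011 sphincter 1 nuclei, 24 of 712 in sphincter 2 and 96 of 11606 in dilator muscle. In stroma 2 they were 425 of 6763, in endothelial cells 37 of 273 and in leukocytes 46 of 387. The dilated libraries of stroma 2 held 181 of 1340 and 76 of 714. Its untreated libraries held 25 of 277, 39 of 1317 and 27 of 1446. All read-outs are counts of nuclear transcripts, so fewer transcripts per nucleus and a different make-up of a cell type cannot be told apart.

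Of the 50 genes, 25 reached 50 CPM in at least 1 cell type of untreated irises, and 39 had enough UMIs to be tested in at least 1 cell type. The other 11 (*Cacna1f*, *Cacna1i*, *Cacna1s*, *Cacng1*, *Cacng2*, *Cacng3*, *Cacng6*, *Cacng8*, *Ryr1*, *Atp2a3* and *Atp2c2*) had 29 to 157 UMIs each in the whole data set. The heat map of levels shows each family led by 1 or 2 genes in a given cell type. No p-value is given for differences between cell types, because the clusters had been defined from the same counts.

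**Figure D1:**
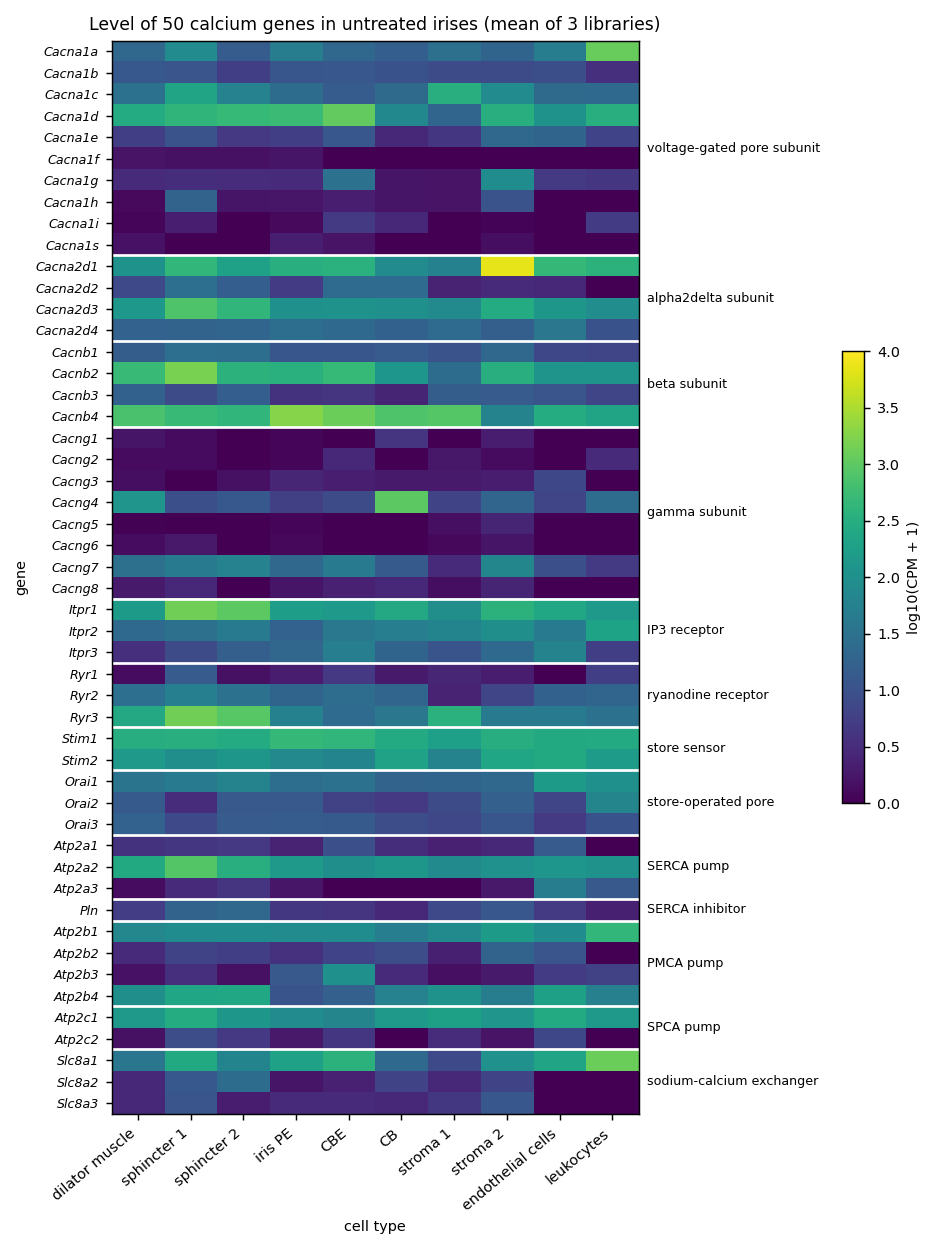
Mean level of the 50 calcium genes (rows, grouped by family) in the 10 cell types (columns) over the 3 untreated libraries, as log10(CPM + 1) on a colour scale from 0 to 4. The brightest cell is *Cacna2d1* in stroma 2, at 7224 CPM, and 25 of the 50 genes reach 50 CPM in some cell type.

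Among the pore subunits, *Cacna1d* (CaV1.3, an L-type channel that opens at relatively negative voltages) was the most widespread. It was at 1092 ± 104 CPM in CBE and 529.7 ± 88.2 CPM in iris PE (mean ± SD over 3 untreated libraries), and the lowest CBE library, at 975 CPM, was above the highest iris PE library, at 584 CPM. Its level in the muscles was lower, with 284 CPM in the dilator, 414 CPM in sphincter 1 and 479 CPM in sphincter 2. *Cacna1c* (CaV1.2, the L-type channel of vascular and visceral smooth muscle) showed another order, with 316 ± 21.1 CPM in stroma 1, 219 ± 15.9 CPM in sphincter 1, 57.4 CPM in sphincter 2 and only 30.0 CPM in dilator muscle. *Cacna1a* (CaV2.1, the P/Q-type channel of nerve terminals) was at 1157 ± 100.01 CPM in leukocytes, 13.7 times the next cell type, sphincter 1, at 84.7 ± 41.6 CPM. The 3 untreated leukocyte samples lay at 1126, 1076 and 1269 CPM. The T-type gene *Cacna1g* had its highest level in stroma 2 (86.2 ± 4.51 CPM), followed by CBE (30.6 ± 13.4 CPM). The 6 other pore subunits stayed under 50 CPM in all cell types.

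The accessory subunits, which bring the pore to the membrane and set its gating, did not all have their highest level in the same cell type. *Cacna2d1*, the alpha2delta-1 subunit (chr5:15934691-16374511, plus strand, mm10), was at 7224 ± 1030 CPM in stroma 2, with 6312, 7018 and 8341 CPM in the 3 untreated libraries. That was 15.5 times its level in endothelial cells, 465 ± 204 CPM. This log2 ratio of 3.96 was 6.998 without nuclei of mixed markers and 3.76 to 4.44 in the other alternatives. A UMI of it was found in 98.4% of 3040 stroma 2 nuclei against 11.9% of 1292 stroma 1 nuclei, the type with the lowest share. With every nucleus thinned to 1000 UMIs these shares were 94.9% and 4.85%. *Cacna2d3* was higher in the sphincter than elsewhere, at 785 ± 88.8 CPM in sphincter 1 and 432 ± 12.3 CPM in sphincter 2.

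Of the beta subunits, which bind the pore inside the cell, *Cacnb4* led in iris PE (1867 ± 30.1 CPM) and CBE (1259.7 ± 299 CPM). It also had the highest mean CPM of the beta subunits in dilator muscle, sphincter 2, CB, stroma 1, endothelial cells and leukocytes. In sphincter 2 this order was not kept in the UMIs of all untreated nuclei, 460 of *Cacnb4* and 483 of *Cacnb2*. A UMI of *Cacnb4* was found in 77.5% of dilator, 81.2% of CB and 78.1% of stroma 1 nuclei. *Cacnb2* led in sphincter 1 at 1592 ± 282 CPM, 3.12 times its level in dilator muscle, 509.8 ± 12.3 CPM. *Cacng4* (TARP gamma-4, an auxiliary subunit of AMPA-type glutamate receptors) was at 987 ± 97.0 CPM in CB, with 1092, 901 and 969 CPM in the 3 libraries, and at 123 ± 13.2 CPM in dilator muscle. All other cell types were at 25.7 CPM of *Cacng4* or lower. *Cacng7* had similar levels in stroma 2 (67.9 ± 4.51 CPM) and sphincter 2 (59.3 ± 20.4 CPM), whose libraries overlapped.

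Of the store release channels, *Itpr1* and *Ryr3* were highest in sphincter 1. The 3 untreated libraries had 1667, 1137 and 1284 CPM of *Itpr1* there, against 1081, 959 and 918 CPM in sphincter 2. They had 1618, 1241 and 1248 CPM of *Ryr3* there, against 980.3, 936 and 796 CPM in sphincter 2. Outside the muscles *Ryr3* was highest in stroma 1 (363 CPM), above dilator muscle (259.6 CPM), and a UMI of it was seen in 55.5% of stroma 1 nuclei and 45.8% of dilator nuclei against 6.09% of stroma 2 nuclei and 5.70% of leukocyte nuclei. The other IP3 receptor genes were found elsewhere: *Itpr2* was at 208 ± 42.3 CPM in leukocytes and *Itpr3* at 60.5 ± 31.6 CPM in endothelial cells and 50.6 ± 20.9 CPM in CBE, where the libraries overlapped. The cardiac isoform *Ryr2* reached 52.2 ± 10.9 CPM in sphincter 1. *Ryr1*, the skeletal muscle isoform, was at 0, 27.1 and 12.6 CPM in sphincter 1 of the untreated libraries (31 UMIs), so that 1 of them also had none. It had 20 UMIs in the constricted libraries and 0 UMIs in the dilated ones, which allows a level of up to 3.75 CPM (3 UMIs over both libraries).

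The store sensor *Stim1* varied less between cell types than the channels, from 178 CPM in stroma 1 to 460.0 CPM in iris PE. *Stim2* lay between 61.0 CPM in stroma 1 and 272 CPM in endothelial cells. *Orai1*, the pore that STIM proteins open, was at 149 ± 107 CPM in endothelial cells and 99.2 ± 58.8 CPM in leukocytes, which overlapped, and at 34.2 ± 4.12 CPM in dilator muscle. *Orai2* was at 66.1 ± 20.6 CPM in leukocytes and 15.6 CPM or lower in the other types, and *Orai3* stayed at 16.9 CPM or lower.

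Among the pumps, *Atp2a2* (SERCA2, chr5:122453513-122502225, minus strand, mm10) stood at 866, 855 and 818 CPM in sphincter 1 of the untreated libraries. That was 2.67 times sphincter 2, at 302, 331 and 317 CPM, and dilator muscle had 268 ± 30.7 CPM. *Atp2a1*, the fast skeletal muscle form, stayed at 12.9 CPM or lower and *Atp2a3* was highest in endothelial cells, at 47.4 CPM. *Pln*, which restrains SERCA, had few UMIs: 18.1 ± 11.0 CPM in sphincter 1 from 44 UMIs, 21.0 ± 6.33 CPM in sphincter 2 from 23 UMIs and 4.26 ± 1.71 CPM in dilator muscle from 54 UMIs. Of the plasma membrane pumps, *Atp2b1* led in leukocytes (449.9 ± 19.0 CPM), *Atp2b4* had like levels in sphincter 2 (241 ± 69.1 CPM) and sphincter 1 (227 ± 34.6 CPM), which overlapped, and *Atp2b3* was at 100.5 ± 13.4 CPM in CBE, 8.42 times iris PE. *Atp2c1*, the pump of the Golgi, overlapped between sphincter 1 (299 ± 44.4 CPM) and endothelial cells (282 ± 19.0 CPM). The exchanger *Slc8a1* (NCX1) was at 1254 ± 312 CPM in leukocytes, 373 ± 12.2 CPM in CBE and 270.4 ± 64.4 CPM in sphincter 1 against 35.8 ± 10.1 CPM in dilator muscle.

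Different genes were compared per length, since the UMIs include reads of introns and long genes can collect more of them. Whether the counts scale with gene span was not tested, and the order of some genes was another by CPM. Per kilobase of gene span, *Atp2a2* was the highest member in all 3 muscle types, at 17.4 CPM per kb in sphincter 1, 6.504 in sphincter 2 and 5.50 in dilator muscle. On the same scale *Itpr1* (4.03, 2.92 and 0.439 CPM per kb) and *Ryr3* (2.34, 1.54 and 0.443 CPM per kb) lay below *Atp2a2* in all 3 types, although their CPM exceeded that of *Atp2a2* in both sphincter types. *Cacna1d* was the leading pore subunit per kb in all 3 muscle types (0.917, 1.06 and 0.628 CPM per kb), ahead of *Cacna1c* in both sphincter types (0.359 and 0.0942 CPM per kb) and of *Cacna1a* in dilator muscle (0.0856 CPM per kb). Of the alpha2delta genes, *Cacna2d1* (1.02 CPM per kb) and *Cacna2d3* (0.961 CPM per kb) were close in sphincter 1. Among the exchangers the short gene *Slc8a2* led in sphincter 2 (0.802 CPM per kb against 0.172 for *Slc8a1*). That value rests on 22 UMIs (25.1 ± 18.0 CPM), and by CPM *Slc8a1* led. In dilator muscle *Orai3* (3.18 CPM per kb) exceeded *Orai1* (2.22 CPM per kb). The short gene *Pln* was at 2.17 CPM per kb in sphincter 1, 2.53 in sphincter 2 and 0.512 in dilator muscle, from few UMIs. Those values were above *Ryr3* in sphincter 2 and dilator muscle and below it in sphincter 1.

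**Figure D2:**
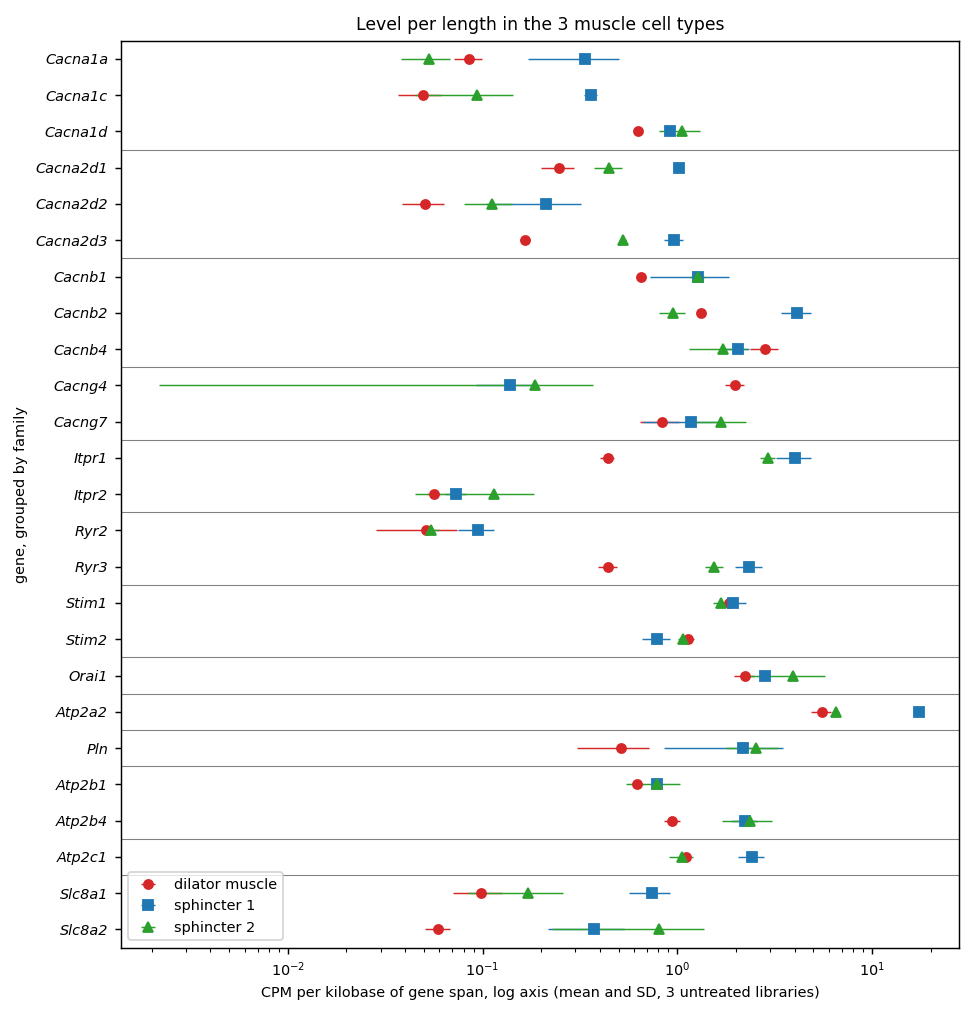
Level per kilobase of gene span (x axis, CPM per kb, log scale; mean and SD over 3 untreated libraries) of the members that reach 20 CPM in a muscle type, in dilator muscle (circles), sphincter 1 (squares) and sphincter 2 (triangles). *Atp2a2* lies farthest right in each muscle type, at 17.4 CPM per kb in sphincter 1, and *Itpr1* and *Ryr3* are lower in dilator muscle than in both sphincter types.

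The study asked how pupil dilation changes transcripts in each cell type. Calls needed a log2 fold change beyond 0.6 in either direction and an adjusted p below 0.05 (edgeR quasi-likelihood test, Benjamini-Hochberg over the genes of that cell type). Between dilated and untreated libraries 11 of 232 pairs of a member and a cell type were called, 7 higher and 4 lower, beside 3.34% of the pairs of all genes tested (1.87% higher and 1.47% lower). Of these, 7 fell in dilator muscle (4 higher and 3 lower of 36 members tested), where 13.3% of all genes tested were called, 7.2% higher and 6.14% lower. The median log2 fold change of the members in dilator muscle was -0.06, and that of all genes tested was 0.02. Without scaling factors, an alternative chosen after seeing the data, the median of all genes tested in dilator muscle was -0.16, and 726 genes were called higher and 1532 lower in place of 1109 and 945. The members then had 11 calls over all cell types, 6 higher and 5 lower, of which 10 were shared. With the library series as a block, that is runs of consecutive library numbers in the sample titles, 19 pairs were called, 9 higher and 10 lower, with all 11 among them. The share of all genes called with this block is not given here.

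*Cacna2d3* (chr14:28904943-29721864, minus strand, mm10) changed most among the members called in dilator muscle. It was at 128, 135 and 143 CPM in the 3 untreated libraries and at 451 and 345 CPM in the 2 dilated libraries. The constricted libraries, at 246, 179.9 and 125 CPM, also lay below both dilated ones. The log2 fold change against untreated was 1.73 ± 0.21 (SE), with an adjusted p of 2.4e-04.

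The 3 other members that rose in dilator muscle were pumps and a store-operated channel. *Atp2b1*, the widespread plasma membrane calcium pump PMCA1, was at 68.6, 74.6 and 65.8 CPM in untreated and at 122 and 118 CPM in dilated libraries (log2 fold change 0.97 ± 0.15, adjusted p 9.1e-04). *Orai1* was at 38.0, 29.8 and 34.6 CPM in untreated and at 65.2 and 47.3 CPM in dilated libraries (0.92 ± 0.17, adjusted p 0.0032). For both genes each dilated library was above all untreated and constricted ones. *Atp2a2* was at 303, 247 and 254 CPM in untreated and at 383 and 406 CPM in dilated libraries (0.76 ± 0.14, adjusted p 0.0039), again without overlap. The fitted folds use scaling factors (TMM) that the CPM do not include. Without them the log2 fold change of *Atp2a2* was 0.56 (adjusted p 0.0196), under the threshold of 0.6. Without dilated library 2 the adjusted p of *Atp2a2* was 0.0511, at a log2 fold change of 0.64.

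The 3 members that fell in dilator muscle were a store sensor, an L-type channel and the exchanger. *Stim1* (chr7:102267806-102437319, plus strand, mm10) was at 338, 296 and 303 CPM in untreated, 351, 369.6 and 334 CPM in constricted and 174 and 160.9 CPM in dilated libraries. Its log2 fold change against untreated was -0.71 ± 0.13 (adjusted p 0.0032), so that *Stim1* and *Orai1* moved in opposite directions in the same cell type. *Cacna1d* was at 269.9, 289 and 291 CPM in untreated and at 143 and 138 CPM in dilated libraries (-0.83 ± 0.14, adjusted p 0.0018). *Slc8a1* was at 47.4, 29.1 and 30.8 CPM in untreated and at 19.4 and 13.8 CPM in dilated libraries, which did not overlap, with a log2 fold change of -0.86 ± 0.26 (adjusted p 0.0455). The call on *Slc8a1* was lost without any 1 of 6 libraries, with adjusted p-values of 0.0911 without dilated library 1, 0.233 without dilated library 2, 0.106, 0.0725 and 0.083 without untreated libraries 1, 2 and 3, and 0.0633 without constricted library 2.

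The other 29 members tested in dilator muscle were not called. They included the release channels *Itpr1* (0.13 ± 0.14) and *Ryr3* (0.17 ± 0.17), the beta subunits *Cacnb2* (-0.21) and *Cacnb4* (-0.42, adjusted p 0.14), and *Stim2* (-0.17). In the same nuclei the summed dilator markers *Adra1a* and *Nos1* were at 709 to 741 CPM in untreated, 403 to 740.3 CPM in constricted and 338 to 483 CPM in dilated libraries, and the 4 smooth muscle markers at 2613 to 2808, 2883 to 3349 and 1619 to 2312 CPM. The 4 lens fibre markers were at 398 to 506 CPM in untreated and 241 to 301 CPM in dilated libraries, and 4 pericyte markers at 18.9 to 27.4 and 7.21 to 11.9 CPM. Markers of stroma 1 (11.5 to 13.1 CPM untreated, 5.81 to 6.02 CPM dilated) were also lower without overlap. So were those of pigment epithelium (81.7 to 93.6 and 59.5 to 77.2 CPM) and Schwann cells (30.5 to 41.8 and 17.4 to 24.8 CPM). Markers of stroma 2 (24.9 to 43.8 CPM untreated, 19.4 to 31.8 CPM dilated) and of leukocytes (8.54 to 19.9 and 4.81 to 13.03 CPM) overlapped between the groups. Those of sphincter 1, endothelial cells and photoreceptors also overlapped. The deposited share of mitochondrial transcripts averaged 0.035% to 0.044% per library in untreated, 0.031% to 0.055% in constricted and 0.053% to 0.089% in dilated dilator muscle. What sets this share in purified nuclei was not tested. The part of these values in the results was not tested.

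The promoters of *Atp2b1*, *Orai1* and *Cacna2d3*, which rose in dilator muscle, are shown with that of *Cacng5*, which rose in stroma 2. The sequences are RefSeq's (GRCm38.p6), 250 bases before to 50 bases after the transcription start, 5′ to 3′ on the gene's strand, and 39 of the 50 members had an entry. *Atp2a2* had none. Capitals mark TGACG on either strand (TGACG or CGTCA), the core of the cyclic AMP response element, and TGAGTCA on either strand (TGAGTCA or TGACTCA), the AP-1 site. *Cacng5* is described with stroma 2.
*Atp2b1*, chr10:98914392-98914691, plus strand: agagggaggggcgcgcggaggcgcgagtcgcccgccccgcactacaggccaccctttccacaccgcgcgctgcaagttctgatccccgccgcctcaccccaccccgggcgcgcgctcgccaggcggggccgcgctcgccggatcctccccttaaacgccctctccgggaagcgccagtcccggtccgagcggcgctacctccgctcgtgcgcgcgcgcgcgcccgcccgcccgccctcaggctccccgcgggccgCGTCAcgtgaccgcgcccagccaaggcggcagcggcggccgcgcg
*Orai1*, chr5:123014824-123015123, plus strand: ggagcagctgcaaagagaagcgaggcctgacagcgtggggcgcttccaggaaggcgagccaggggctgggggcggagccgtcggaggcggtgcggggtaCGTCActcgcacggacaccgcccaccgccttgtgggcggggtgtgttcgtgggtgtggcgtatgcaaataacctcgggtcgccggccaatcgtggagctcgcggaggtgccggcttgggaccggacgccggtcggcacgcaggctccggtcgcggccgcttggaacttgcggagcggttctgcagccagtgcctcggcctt
*Cacna2d3*, chr14:29721815-29722114, minus strand: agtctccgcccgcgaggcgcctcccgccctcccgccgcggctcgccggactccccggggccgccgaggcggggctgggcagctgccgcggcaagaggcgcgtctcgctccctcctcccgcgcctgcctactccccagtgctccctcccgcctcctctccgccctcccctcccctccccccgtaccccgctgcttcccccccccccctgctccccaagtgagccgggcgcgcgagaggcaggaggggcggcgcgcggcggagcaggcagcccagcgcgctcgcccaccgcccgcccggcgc
*Cacng5*, chr11:107915006-107915305, minus strand: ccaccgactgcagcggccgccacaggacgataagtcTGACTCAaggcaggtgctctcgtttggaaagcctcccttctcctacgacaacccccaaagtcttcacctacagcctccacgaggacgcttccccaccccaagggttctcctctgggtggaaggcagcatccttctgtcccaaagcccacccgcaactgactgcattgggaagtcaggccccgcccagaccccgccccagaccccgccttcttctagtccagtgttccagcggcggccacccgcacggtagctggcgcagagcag
TGACG occurred once in the windows of *Atp2b1* and *Orai1* and not in that of *Cacna2d3*. Of the members that fell in dilator muscle, *Stim1* also had 1 in its window, and *Cacna1d* and *Slc8a1* had none. TGACG occurred in 10 of 39 member promoters (25.6%) and in 20.8% of 32851 promoters of the same length. TGAGTCA occurred in 1 of 39 member promoters (2.56%), that of *Cacng5*, and in 5.2% of all. A match is a description of letters in the window only.

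**Figure D3:**
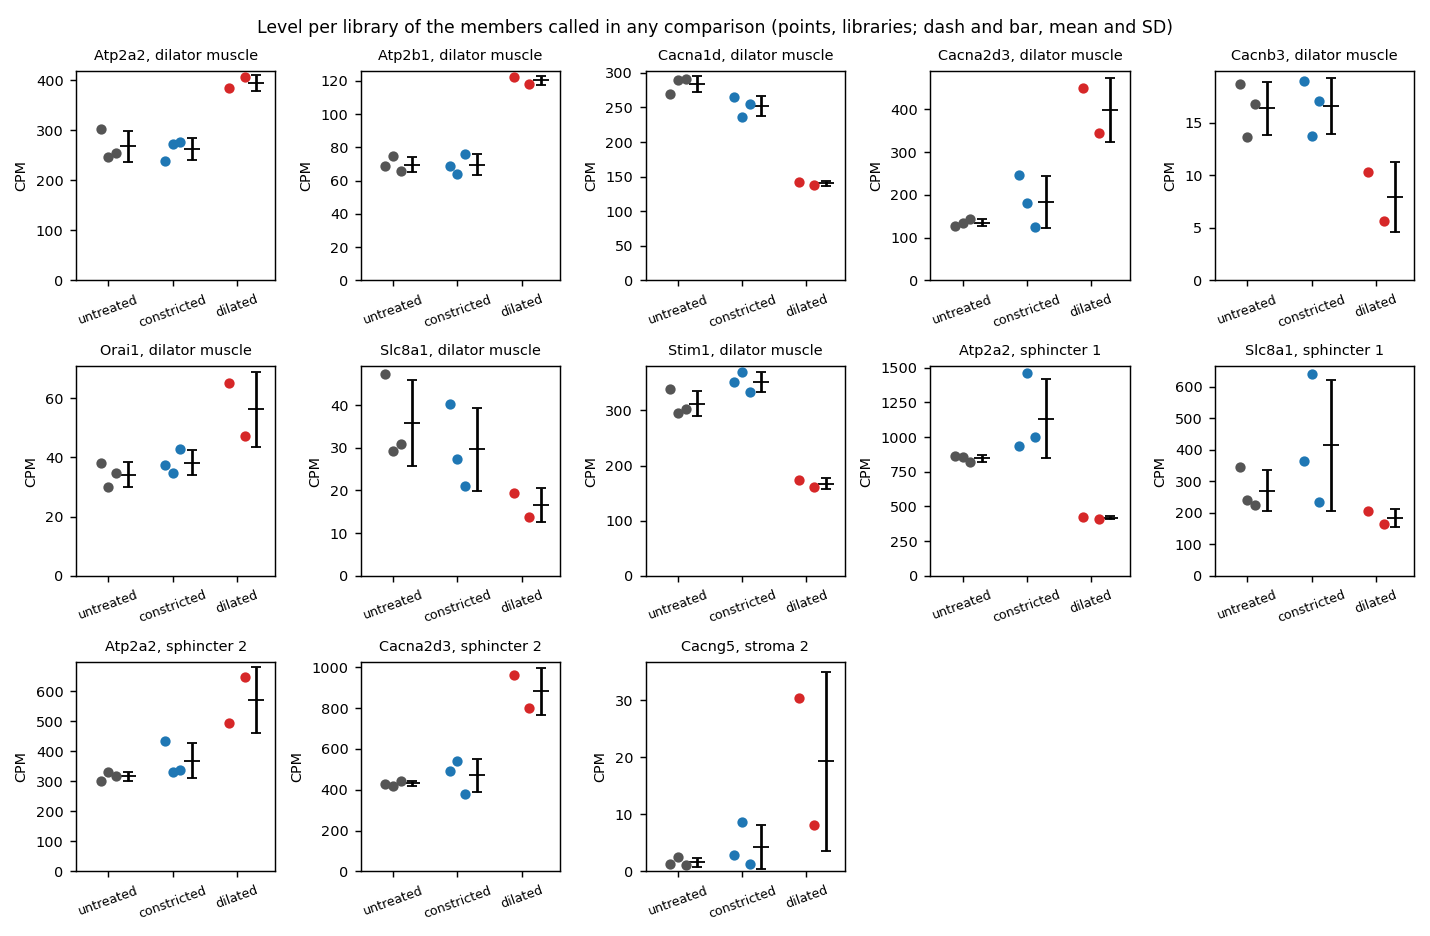
Level in CPM (y axis, from 0) of each member in each cell type in which it was called between any 2 groups, with 1 point per library for untreated (grey), constricted (blue) and dilated (red) irises and the mean and SD beside them. In dilator muscle *Stim1* falls to 174 and 160.9 CPM in the dilated libraries, and *Atp2a2* rises with dilation in dilator muscle and sphincter 2 and falls in sphincter 1.

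Whether each sphincter type relaxed under the drops was not tested. The summed dilator markers *Adra1a* and *Nos1* were at 241 to 284 CPM in untreated sphincter 2 and 16.1 to 61.4 CPM in untreated sphincter 1. The paper describes the pharmacology of sphincter 2 as intermediate between sphincter 1 and dilator. The sphincter types differed from each other in the direction of *Atp2a2*. In sphincter 1 it was at 866, 855 and 818 CPM in untreated, 938, 1459 and 999 CPM in constricted and 425 and 413 CPM in dilated libraries, with no overlap. The log2 fold change against untreated was -0.97 ± 0.23 (adjusted p 0.0234), the only call among 23 members tested there, beside 1.95% of all genes tested. The untreated libraries of sphincter 2 had 302, 331 and 317 CPM and the dilated ones 493 and 647 CPM, a log2 fold change of 0.92 ± 0.22 (adjusted p 0.0121). The constricted libraries of sphincter 2 had 435, 332 and 338 CPM, below both dilated ones, and against them the difference was not called (0.68 ± 0.22, adjusted p 0.101). The direction was kept in both types without any single library, but the adjusted p in sphincter 1 was 0.188 and 0.201 without dilated library 1 or 2, and 0.0523, 0.107 and 0.133 without untreated library 1, 2 or 3. In sphincter 2 it was 0.37 without dilated library 2 and 0.0638 and 0.103 without untreated library 2 or 3.

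*Cacna2d3* was the other member called in sphincter 2, where 2 of 19 members tested were called beside 2.87% of all genes tested. It was at 431, 420.4 and 445 CPM in untreated and at 963 and 801 CPM in dilated libraries (1.10 ± 0.20, adjusted p 0.0011). In sphincter 1 it was at 887, 729 and 738 CPM in untreated and at 624.5 and 561 CPM in dilated libraries, which did not overlap, and this difference was not called (-0.36 ± 0.24, adjusted p 0.686).

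The difference between the sphincter types was itself tested in a joint edgeR fit of both, a test chosen with these values known. The dilation effect was higher in sphincter 2 than in sphincter 1 by 1.88 ± 0.23 log2 units for *Atp2a2* (adjusted p 5.3e-08) and by 1.43 ± 0.21 for *Cacna2d3* (adjusted p 1.8e-06), beside 3.33% of all genes tested. Of 22 members tested 4 were called, all higher. Both differences were called without any single library, between 1.62 and 2.10 for *Atp2a2* and between 1.35 and 1.49 for *Cacna2d3*. *Itpr1* differed by 0.82 ± 0.21 (adjusted p 0.0108): it was at 1036 and 1004 CPM in the dilated libraries of sphincter 1, under all 3 untreated ones, and at 1270.5 and 1308 CPM in those of sphincter 2, above all 3 untreated ones. *Cacna1a* differed by 2.12 ± 0.61 (adjusted p 0.0337), from 57.3 and 27.7 CPM in dilated against 37.6, 116 and 100.2 CPM in untreated libraries of sphincter 1, which overlapped, and 25.9 and 27.3 against 9.16, 14.6 and 16.3 CPM in sphincter 2. The sphincter 2 values of *Cacna1a* rest on few UMIs, since these libraries held 109148 to 674523 UMIs of all genes in that type. The calls on *Itpr1* and *Cacna1a* were each lost without 1 of 4 libraries: for *Itpr1* the adjusted p was 0.245 without dilated library 2, 0.082 without dilated library 1, and 0.0659 and 0.072 without untreated library 1 or 3, and for *Cacna1a* it was 0.538 and 0.0731 without dilated library 2 or 1 and 0.136 and 0.104 without untreated library 2 or 3.

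Sphincter 1 nuclei also changed in some of their own markers. The summed level of *Chrm3*, *Ttn* and *Ctnna3* was 6506 to 7629 CPM in untreated and 5068 to 6141 CPM in dilated libraries of sphincter 1, where *Ttn* (log2 fold change -1.84) and *Ctnna3* (-1.30) were called lower. The sum changed less than either of these genes, and *Chrm3* alone is not reported here. The same list was at 593 to 830.2 CPM in untreated and 392 to 611 CPM in dilated libraries of sphincter 2. In sphincter 2 the 4 smooth muscle markers were at 4310 to 4834 CPM in untreated and 5175 to 6098 CPM in dilated libraries, without overlap. Its constricted libraries had 5804 to 6178 CPM of them. In sphincter 1 they were at 4207 to 5414 CPM in untreated and 4952 to 5337 CPM in dilated libraries, which overlapped. The pigment epithelium markers *Zic1*, *Zic4* and *Otx1* were at 194 to 360.4 CPM in untreated and 362 to 387 CPM in dilated libraries of sphincter 1. The study reports OTX1 in sphincter muscle as well, and *Otx1* alone is not given here. The mitochondrial share was 0.056% to 0.071% in untreated and 0.071% in both dilated libraries of sphincter 1, and 0.024% to 0.047% in untreated and 0.061% to 0.065% in dilated libraries of sphincter 2. The part of these values in the results was not tested.

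**Figure D4:**
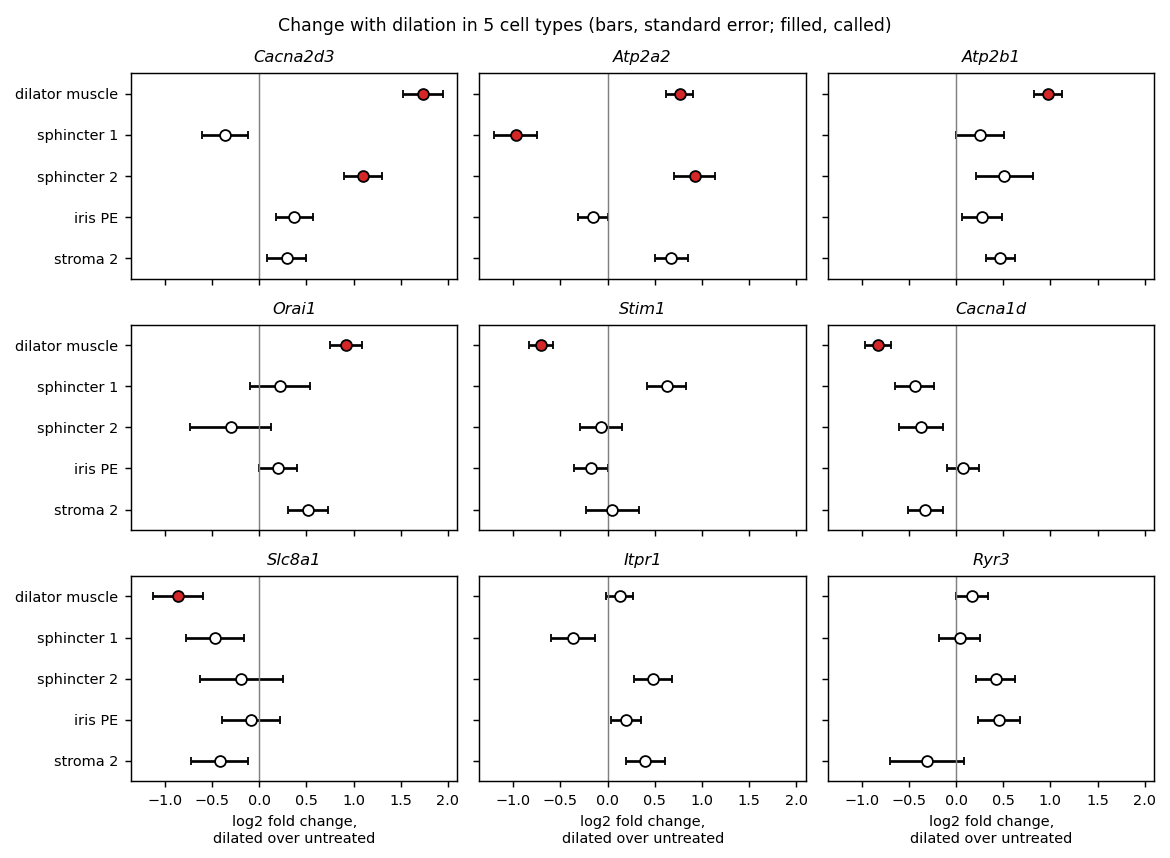
Log2 fold change of dilated over untreated libraries (x axis; points, edgeR estimates; bars, standard errors) for 9 members in 5 cell types, with called results filled. *Atp2a2* lies at 0.76 in dilator muscle, -0.97 in sphincter 1 and 0.92 in sphincter 2, and *Stim1* at -0.71 in dilator muscle and 0.63 in sphincter 1, the last not called.

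The dilation effect in dilator muscle was compared with that in 4 other cell types in joint fits. Of 143 tests of members, 18 were called, beside 8.81% of all genes for iris PE, 6.67% for sphincter 1, 2.04% for sphincter 2 and 7.56% for stroma 2. 1 of the 18 was *Ryr1* in sphincter 1, which had 0 UMIs in the dilated libraries and in 1 untreated library, so no size is given. Its adjusted p was 0.264 without dilated library 1 and 0.151 without untreated library 2.

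*Cacna2d3* had a lower effect than in dilator muscle in sphincter 1 (a difference of -2.06 ± 0.21 log2 units), stroma 2 (-1.44 ± 0.21) and iris PE (-1.33 ± 0.12). *Atp2a2* had a lower effect in sphincter 1 (-1.73 ± 0.20) and iris PE (-0.87 ± 0.12). *Stim1* had a higher effect in sphincter 1 (1.35 ± 0.20), where it was at 382, 277 and 325 CPM in untreated and 510.0 and 464 CPM in dilated libraries, without overlap. Within sphincter 1 that rise was not called (0.63 ± 0.20, adjusted p 0.151).

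In iris PE, which lines the back of the iris and adjoins the dilator, 0 of 32 members were called by edgeR beside 0.595% of all genes tested, and 2 of 32 had an unadjusted p under 0.05. The share of all genes at that unadjusted cut was not computed, here or for the other such counts below. *Cacna1d* differed there from its effect in dilator muscle by 0.93 ± 0.12, *Slc8a1* by 0.78 ± 0.20 and *Orai1* by -0.70 ± 0.18. *Cacna1d* was at 428, 577 and 584 CPM in untreated and 558 and 529 CPM in dilated iris PE, which overlapped. The difference on *Orai1* was -0.42 (adjusted p 0.331) without dilated library 1 and had an adjusted p of 0.106 without untreated library 2, and that on *Slc8a1* had adjusted p-values of 0.273 and 0.0701 without dilated library 1 or untreated library 3.

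In stroma 2, 1 of 36 members was called beside 1.73% of all genes tested. *Cacng5*, a gamma subunit gene, was at 1.21, 2.50 and 1.13 CPM in untreated, 2.80, 8.61 and 1.31 CPM in constricted and 30.5 and 8.18 CPM in dilated libraries, where the dilated and constricted ones overlapped. The log2 fold change against untreated was 3.53 ± 0.66 (adjusted p 0.0213), from 13 UMIs in untreated and 127 UMIs in dilated libraries. Without dilated library 1 it was 2.29 (adjusted p 0.296), and the adjusted p was 0.0806 and 0.152 without untreated library 2 or 3. *Atp2a2* was at 109, 104 and 100.2 CPM in untreated and 178 and 144 CPM in dilated stroma 2, a rise that was not called (0.67 ± 0.18, adjusted p 0.0852). *Cacna2d1* was at 4740.5 and 4474.5 CPM in the dilated libraries, under all 3 untreated ones, and was not called (-0.61 ± 0.22, adjusted p 0.271). The summed smooth muscle markers were at 106 to 232 CPM in untreated and 244 to 291 CPM in dilated stroma 2, with *Lmod1* called higher (1.89), and 5 endothelial markers at 61.7 to 163 and 158 to 205 CPM. The mitochondrial share was 0.052% to 0.067% in untreated and 0.073% to 0.101% in dilated stroma 2. Their part in the results was not tested.

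No member was called in CB, CBE, stroma 1, endothelial cells or leukocytes between dilated and untreated libraries by edgeR, beside 0.0665%, 0.0122%, 1.17%, 0% and 1.32% of all genes tested there. At an unadjusted p under 0.05 were 1 of 20, 1 of 24, 8 of 19, 1 of 8 and 2 of 15 members. Without the share of all genes at that cut, these counts do not show whether members stand out. Among those of stroma 1 were *Cacna1c* (-0.63 ± 0.20, adjusted p 0.139) and *Atp2b4* (-0.61 ± 0.19, adjusted p 0.137).

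Dilated against constricted libraries compares mice that all had eye drops, and shares its dilated libraries with the comparison above. It gave 10 calls of 232, 5 higher and 5 lower, beside 2.65% of the pairs of all genes (1.35% higher and 1.31% lower). In dilator muscle 7 of 36 members were called, beside 10.5% of all genes tested (5.59% higher and 4.87% lower). *Cacna2d3* (1.28 ± 0.21), *Atp2b1* (0.96 ± 0.15), *Atp2a2* (0.76 ± 0.14) and *Orai1* (0.71 ± 0.17) were higher, and *Stim1* (-0.90 ± 0.13), *Cacnb3* (-0.88 ± 0.26) and *Cacna1d* (-0.67 ± 0.14) were lower. *Cacnb3*, a beta subunit gene, was at 19.0, 13.7 and 17.1 CPM in constricted and at 10.3 and 5.61 CPM in dilated libraries, an adjusted p of 0.0449 that was above 0.05 in 7 of 16 alternatives. Those without 1 library gave 0.302 (dilated library 2), 0.119 and 0.0738 (constricted libraries 1 and 3) and 0.0522, 0.0698 and 0.0791 (untreated libraries 1, 2 and 3), and DESeq2 gave 0.0508. The adjusted p of *Atp2a2* was 0.0596 without dilated library 2, that of *Cacna1d* 0.0659 without dilated library 1, and that of *Orai1* 0.148 and 0.0503 without dilated library 1 or constricted library 1. Without scaling factors *Atp2a2* (0.59) and *Orai1* (0.56, adjusted p 0.067) were not called, and the members had 8 calls over all cell types, 3 higher and 5 lower, while the median of all genes tested in dilator muscle was -0.18. The share of all genes called without scaling factors is not given here.

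In sphincter 1, where 3.7% of all genes tested were called, *Atp2a2* was lower in dilated than in constricted libraries by a log2 fold change of -1.41 ± 0.23 (adjusted p 7.0e-04), and this call held without any single library. *Slc8a1* was at 365, 642 and 236 CPM in constricted and at 205 and 164 CPM in dilated libraries (-1.11 ± 0.31, adjusted p 0.0493). That call held in 5 of 16 alternatives. The log2 fold change was -0.67 (adjusted p 0.0585) with the library series as a block and -0.68 (adjusted p 0.228) without constricted library 2. The adjusted p was 0.15 and 0.309 without dilated library 1 or 2, 0.0611 without constricted library 1, 0.062 and 0.089 without untreated library 2 or 3, 0.076 without nuclei of mixed markers, 0.0583 without nuclei of shared barcodes, 0.0518 with the size factors of DESeq2 and 0.0543 without scaling factors. In sphincter 2 *Cacna2d3* was higher (0.97 ± 0.20, adjusted p 0.0043), at 490.2, 541 and 379.8 CPM in constricted libraries, beside 2.45% of all genes tested.

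Between constricted and untreated libraries edgeR called 0 of 232 pairs, beside 0.0118% of the pairs of all genes, while DESeq2 called 1. The share of all genes called by DESeq2 is not given here. By edgeR 22 pairs had an unadjusted p under 0.05, a count without the share of all genes beside it. The lowest of these p-values was that of *Cacna2d3* in stroma 2 (0.91 ± 0.19, p 4.1e-04, adjusted p 0.246 in the fit across all genes), where it was at 239, 313 and 325 CPM in untreated and at 527, 654.5 and 474 CPM in constricted libraries, without overlap. *Cacna2d1* in stroma 2 was at 5143, 4938 and 3280 CPM in constricted libraries, under all untreated ones (-0.70 ± 0.20, adjusted p 0.588).

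The genes that act on these channels and pumps were followed in 5 lists with 69 genes, of which 66 were in the files. These lists were chosen with earlier results of these data known. Their counts of calls are therefore a description and no test against the shares of all genes. Whether the calls on these genes held in the alternatives is not reported here. In dilator muscle 13 of 56 were called between dilated and untreated libraries, 9 higher and 4 lower, beside 13.3% of all genes tested. Of the inhibitors and adaptors of L-type channels 4 of 7 tested were called, all higher. They included *Cbarp*, a transmembrane protein that binds beta subunits and inhibits the channel, at 11.2, 5.91 and 5.06 CPM in untreated and 29.2 and 37.3 CPM in dilated libraries (2.52 ± 0.30). *Gem*, a small GTPase with the same action, was at 122, 101 and 90.3 CPM in untreated and 204 and 565 CPM in dilated libraries (2.12 ± 0.34), with a wide gap between the dilated ones. *Stac*, an adaptor that holds L-type channels at the membrane, was at 161, 149 and 139 CPM in untreated and 317 and 231 CPM in dilated libraries (1.05 ± 0.22).

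Of the store release partners and junction genes 5 of 13 tested were called in dilator muscle, 2 higher and 3 lower. *Homer1*, a scaffold that binds IP3 receptors, was at 36.2, 27.6 and 27.4 CPM in untreated and 109 and 170.1 CPM in dilated libraries (2.44 ± 0.24), whereas *Casq1*, a calcium buffer of the store, was at 9.97, 4.79 and 5.22 CPM in untreated and 1.28 and 1.20 CPM in dilated libraries (-2.09 ± 0.47). *Cracr2a*, a calcium-binding regulator of ORAI channels, was the 1 of 6 pump and store-entry regulators called. It was at 119.7, 110.1 and 104 CPM in untreated and 23.8 and 22.6 CPM in dilated libraries (-2.07 ± 0.18), so that it fell with *Stim1* while *Orai1* rose. Among 19 calcium sensors and kinases 3 were called, all higher. They included *Rcan1*, an inhibitor of calcineurin, at 33.0, 24.5 and 27.4 CPM in untreated and 51.2 and 72.5 CPM in dilated libraries (1.35 ± 0.23). None of 11 mitochondrial uptake genes was called by edgeR, and 1 had an unadjusted p under 0.05.

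In sphincter 1, 3 of 41 of these genes were called between dilated and untreated libraries, all lower, beside 1.95% of all genes tested. *Stac* was at 656, 526 and 651 CPM in untreated and 213 and 136 CPM in dilated libraries (-1.78 ± 0.25), the opposite direction to dilator muscle. *Casq2*, the cardiac form of calsequestrin, was at 86.0, 87.7 and 112 CPM in untreated and 21.8 and 32.3 CPM in dilated libraries (-1.80 ± 0.34). Against constricted libraries 5 of 41 were called, all lower, beside 3.7% of all genes tested. They included *Jph1*, a junctophilin that ties the store to the plasma membrane, at 102, 230.0 and 99.5 CPM in constricted and 43.6 and 48.5 CPM in dilated libraries (-1.52 ± 0.37). In sphincter 2, 2 of 39 were called between dilated and untreated libraries, 1 higher and 1 lower, beside 2.87% of all genes tested. *Gem* was the higher one, at 55.0, 41.6 and 29.7 CPM in untreated and 88.9 and 310.0 CPM in dilated libraries (2.51 ± 0.39). Between the sphincter types the dilation effect of 6 of 43 of these genes differed, beside 3.33% of all genes tested. Of these, 5 were higher and 1 lower in sphincter 2, the last being *Ahcyl2* (-1.08 ± 0.22, adjusted p 6.8e-04), named after its values were seen. The effect was higher in sphincter 2 by 2.07 ± 0.31 for *Stac*, 3.36 ± 0.85 for *Casq2* and 1.85 ± 0.44 for *Gem* in the test chosen with these values known.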

How the data were processed

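The authors prepared nuclei for 8 libraries with a 10x Genomics 3′ kit, aligned the reads to a pre-mRNA index of mm10 with Cell Ranger 3.1.0, so that intron reads count, filtered and clustered the nuclei with Seurat and deposited raw UMI counts for every nucleus, with a cell type for each nucleus and the percent of mitochondrial transcripts. The deposited percent values are given as a description of the libraries only. Per the study's methods the irises were processed in 5 batches whose make-up is not given in the sources used here. The counts were summed here per library and cell type, since nuclei of 1 library are not replicates, and fitted with edgeR 4.0.16 (R 4.3.3): TMM, filterByExpr, glmQLFit and glmQLFTest, two-sided, 8 libraries in 1 fit per cell type, without a replicate block. Standard errors were derived from each estimate and its F statistic. The study's thresholds (0.6 and 0.05) were used and its test on nuclei was not. Effects in 2 cell types were compared in a joint fit with a term for each library. DESeq2 1.42.0 was an alternative. Doublets were not called, and nuclei with at least 3 UMIs of markers listed for a type other than their own (mixed markers) were left out in an alternative. The 3 muscle types shared a marker list for this, as did iris PE and CBE. CB nuclei were not checked for muscle and pigment epithelium markers. Shares of nuclei were also computed after thinning to 1000 UMIs. The scripts were tested on simulated data. Gene spans came from GENCODE vM21, which held all 50 members, and promoters from RefSeq. Named were members at 50 CPM or more in a cell type or called in any comparison, the *Itpr*, *Ryr*, *Stim*, *Orai* and *Atp2a* genes and *Pln*, and at most 10 of the 69 partner genes by absolute log2 fold change among those called in muscle, of which 1 is not reported here. The members, partner lists, marker lists and motifs were chosen with earlier results of these data known. Each dilated group has 2 libraries, so with 1 left out the other is assumed to vary like the remaining groups.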

Additional observations from a re-analysis of the deposited data

Results flagged for a closer look

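Each result here is a difference between the dilation effects of 2 cell types (dilated against untreated, log2 units) that passed the thresholds in a joint edgeR fit.

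Against dilator muscle, the effect in iris PE differed by -1.33 for *Cacna2d3*, -0.87 for *Atp2a2*, -0.70 for *Orai1*, 0.93 for *Cacna1d* and 0.78 for *Slc8a1*. The effect in sphincter 1 differed by -2.06 for *Cacna2d3*, -1.73 for *Atp2a2*, -1.14 for *Cacna1a*, -0.87 for *Cacna2d1* and 1.35 for *Stim1*. *Cacna1a* was at -0.73 without dilated library 2 and -1.71 without dilated library 1, and it was no longer called without dilated library 2 (adjusted p 0.45), untreated library 2 (0.347), untreated library 3 (0.408) or nuclei of mixed markers (0.119).

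The effect in sphincter 2 differed by 0.79 for *Cacnb4*, which was not called without dilated library 2 (adjusted p 0.133) or untreated library 3 (0.0655). The effect in stroma 2 differed by -1.44 for *Cacna2d3*, -1.37 for *Itpr3*, -1.03 for *Cacna2d1*, 1.31 for *Cacna1c*, 1.20 for *Cacnb3* and 0.84 for *Stim1*. *Cacna1c* was at 0.82 (adjusted p 0.182) without dilated library 1 and had an adjusted p of 0.0827 without untreated library 3. *Itpr3* was lost without either dilated library (0.0981 and 0.0961) and without untreated library 2 or 3 (0.135 and 0.133), *Cacnb3* without dilated library 1 (0.159) and untreated library 1 or 3 (0.0583 and 0.172), and *Stim1* without dilated library 2 (0.0682) and untreated library 2 or 3 (0.189 and 0.195).

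Sphincter 2 differed from sphincter 1 by 1.88 for *Atp2a2*, 2.12 for *Cacna1a*, 1.43 for *Cacna2d3* and 0.82 for *Itpr1*, in the fit chosen with these values known.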

How the results depend on the processing

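Of 232 pairs of a member and a cell type, 11 were called between dilated and untreated libraries. The count was 18 with no filter on low counts, 19 with the library series as a block, 11 with DESeq2 and 7 to 12 with 1 library left out (7 without untreated library 2 or 3). Between constricted and untreated libraries the count of 0 became 1 with DESeq2, 5 with no filter, and 0 to 1 with 1 library left out (1 without either dilated library). Between dilated and constricted libraries the count of 10 became 17 with no filter and 8 to 13 with 1 library left out. The cause of these shifts was not tested. The fits without a filter tested more genes, and those with 1 library left out held fewer libraries. With the replicate number as a replicate block the counts were 13, 0 and 13. The numbers do not pair the libraries: same-numbered dilator libraries deviated from their group means with correlations between -0.018 and 0.563. The first series holds library 1 of each group, the last untreated libraries 2 and 3, constricted library 3 and dilated library 2, and constricted library 2 stands alone. The labels do not say that a series is a batch. The 8 pairs of libraries of different groups within a series had correlations of 0.161 to 0.563 and the 13 such pairs between series of -0.563 to 0.087, in which the deviations of the 2 dilated libraries mirror each other by construction. With the series as a block the other counts were 0 and 15. The shares of all genes called in these alternatives are not given here, so the counts do not show whether members stand out. Of 143 differences of the dilation effect from dilator muscle, 18 were called, and 13 to 19 with 1 library left out. Called members kept their direction in all alternatives run. For the partner genes the alternatives are not reported here.

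The order of 2 cell types turned for 5 members whose libraries overlapped. With 1 untreated library left out, the log2 ratio lay between -0.0567 (without library 1) and 0.179 for *Atp2b4* in sphincter 2 over sphincter 1, -0.0107 (library 1) and 0.419 for *Stim2* in endothelial cells over stroma 2, -0.41 (library 1) and 1.44 for *Orai1* in endothelial cells over leukocytes, -0.038 (library 2) and 0.547 for *Cacng7* in stroma 2 over sphincter 2, and -0.0502 (library 3) and 0.166 for *Atp2c1* in sphincter 1 over endothelial cells. The last was -0.0546 without nuclei of mixed markers and -0.0728 as a mean over nuclei. Members under about 10 CPM, and all members in endothelial cells and leukocytes, rest on few UMIs, and a missed threshold there does not show that a level was equal.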
